A study of Arabidopsis thaliana and Medicago truncatula and Solanum lycopersicum with 15 samples.

Results

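Open chromatin of fully differentiated root epidermis was compared with that of whole root tips in Arabidopsis thaliana, using 6 of the 15 samples of the series. The members were the 2 lists of accessible regions from hair cells, the 2 from non-hair cells and the 2 from root tips, taken by their labels, with chromosomes 1 to 5 alone. All plants were of the Col-0 background and grew on vertical agar under 16 h of light and 8 h of dark. Nuclei were captured by INTACT, in which a nuclear envelope tag (NTF) is biotinylated by the BirA ligase and bound to streptavidin beads. The tag was driven by the ADF8 promoter for hair cells, by the GL2 promoter for non-hair cells and by the UBQ10 promoter, active in all cells, for root tips. BirA was under the ACT2 promoter in all 3. Root tip nuclei came from the last 1 cm of the root. Epidermal nuclei came from the zone above the point where hairs are fully grown and below any lateral root. The contrast of epidermis against tip therefore joins a difference in cell type, in root zone and in the promoter behind the tag, which cannot be told apart.

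ATAC-seq uses the Tn5 transposase, which cuts DNA where nucleosomes are absent or loose, so promoters, enhancers and other sites bound by regulators appear as short accessible regions. In roots the tip holds the stem cell niche, the meristem, the root cap and young cells of every tissue layer. The epidermis of the mature zone holds hair cells, which take up water and nutrients through long tubular outgrowths, and non-hair cells, in which the homeodomain factor GL2 represses hair formation. Gene-rich chromosome arms are mostly open and the blocks around centromeres, rich in repeats and poor in genes, are mostly closed.

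The lists give positions only, with no height and no read total, so the depth of each is unknown and a longer list can reflect more reads as well as more open chromatin. Hair replicates held 52373 and 35679 regions, non-hair replicates 52278 and 31212, and root tip replicates 23288 and 23690. A list also does not separate more cells with an open site from a more open site in each cell. Each list had a commonest width, with at most 0.00191% of regions narrower, which was 127 and 142 bp in hair lists, 131 and 152 bp in non-hair lists and 191 and 211 bp in root tip lists. It was wider in both root tip lists than in any epidermal list. Root tip replicate 2 stood apart. Over 1193 windows of 100 kb, its share of covered length had a Pearson correlation of 0.69 with root tip replicate 1 and of 0.43 to 0.55 with the epidermal lists. The 4 epidermal lists correlated with each other at 0.97 to 0.99 and with root tip replicate 1 at 0.87 to 0.93. These correlations describe windows within lists and are not a test. Chromosome-scale results that moved without it are given both ways.

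The first comparison asked where along the chromosomes each kind of nucleus had its open chromatin. Relative to the length of the list, epidermal nuclei had more of it in gene-rich windows, and root tip nuclei had more in gene-poor ones. In windows with 0 to 2 protein-coding genes, hair lists held 72.7 and 72.2 bp per Mb of covered length, non-hair lists 47.5 and 94.0, and root tip lists 172 and 503. Both root tip lists were above all 4 epidermal lists there. In windows with 26 or more genes, hair lists held 977 and 986 bp per Mb, non-hair lists 1040 and 969, and root tip lists 891 and 816. Here both root tip lists were below all 4 epidermal lists. In windows with 20 to 25 genes the groups overlapped, with 953 to 1008 bp per Mb in epidermal lists and 1086 and 1005 in root tip lists. Without scaling to the list, root tip lists covered 1.51 and 4.18% of the sequence of the poorest windows and epidermal lists 0.828 to 1.28%, so the order there was the same without the scaling.

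**Figure D1:**
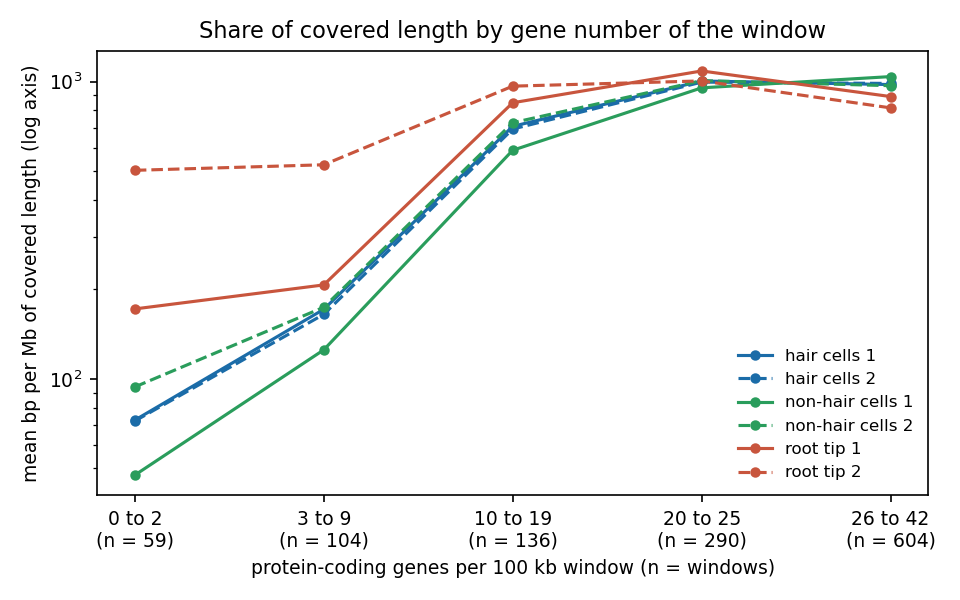
Mean covered bp per window, per Mb of the list's covered length (vertical log axis), for 5 classes of 100 kb windows by number of protein-coding genes (horizontal axis). Each line is 1 list, with solid lines for replicate 1 and dashed lines for replicate 2. The root tip lists lie above the epidermal lists at 0 to 2 genes, most of all replicate 2 at 503 bp per Mb, and below them at 26 or more.

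The 252 windows with the fewest genes, at most 17 each, held 7.75 and 7.52% of the covered length of hair lists, 6.07 and 8.06% of non-hair lists, and 9.75 and 16.6% of root tip lists. The means were 7.35 ± 0.882% (SD, n = 4) in epidermis and 13.1 ± 4.81% (SD, n = 2) in root tips. Every epidermal list was below both root tip lists, and the exact two-sided permutation p of 0.0667 is the smallest that 4 lists against 2 allow (Benjamini-Hochberg adjusted 0.178 over 8 values per list). Without root tip replicate 2 the difference fell from −5.80 to −2.40 percentage points. Coverage was also less even between windows in root tips. The coefficient of variation over full windows was 0.476 and 0.497 in hair lists, 0.511 and 0.505 in non-hair lists, and 0.589 and 0.569 in root tip lists (exact permutation p = 0.0667, adjusted 0.178). With the 23288 widest regions of each list, it was 0.524 and 0.521, 0.563 and 0.524, and 0.589 and 0.577 in the same order. The groups then lay closer and still did not overlap.

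Window by window, limma was fitted to the log2 share over the 1164 windows with enough coverage. It called 389 windows (33.4% of those tested), with a share higher in epidermis in 255 (21.9%) and lower in 134 (11.5%), at an adjusted p under 0.05. Of the 603 windows with 26 or more genes, 208 were higher and 37 lower. Of the 290 with 20 to 25 genes, 45 were higher and 39 lower. Of the 135 with 10 to 19 genes, 2 were higher and 34 lower, and of the 95 with 3 to 9 genes, none was higher and 10 were lower. Of the 41 tested with 0 to 2 genes, 14 were lower. Only 19 windows of that class reached the coverage minimum without root tip replicate 2, so its count rests in part on windows tested because that list was high there. Without root tip replicate 2, 212 windows were higher and 167 lower, and 274 of the 386 calls that could be tested again were made with the same sign. In that fit the split was 175 higher and 53 lower with 26 or more genes, 1 and 29 with 10 to 19 genes, 8 and 11 with 3 to 9 genes, and 1 and 12 with 0 to 2 genes. The median log2 difference was −0.14 in both fits at 20 to 25 genes. It moved from −0.85 to −0.22 at 3 to 9 genes and from −1.85 to −0.97 at 0 to 2 genes. The gene-poor side was thus smaller without that list. No overlap between groups was seen in 252 of the 255 higher calls and all 134 lower ones. Over all 1164 windows tested, called or not, 355 were higher and 320 lower with no overlap. The signs of the calls could therefore hardly change with an epidermal list left out. Without non-hair replicate 1, 19 windows passed, and all 389 called windows kept their sign. With covered bp not scaled to the list, the median window was 0.63 higher on the log2 scale in epidermis, 255 windows were higher and 9 lower, and 314 of the 389 calls kept their sign.

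Among windows past the threshold with no overlap between groups, the 5 largest rises in epidermis were all gene-rich, with 28 to 34 protein-coding genes, and 3 of them lay near a chromosome end. The first 100 kb of chromosome 3 (chr3:1-100000, TAIR10) held 638 and 714 bp per Mb in hair lists, 939 and 532 in non-hair lists, and 212 and 25.4 in root tip lists (log2 difference 2.79 ± 0.53 SE, adjusted p = 0.00329). Root tip replicate 2 held only 211 bp there, the commonest width of that list. The window chr1:30200001-30300000 held 987 to 1358 bp per Mb in epidermis and 323 and 223 in root tips, and chr5:26700001-26800000 held 769 to 1202 against 258 and 206. The other 2, chr3:4200001-4300000 and chr3:800001-900000, lay farther in, with log2 differences of 1.91 and 1.90. In all 5 the lowest epidermal share was above the highest root tip share. Without root tip replicate 2, the log2 difference was 1.61 in the first window and 1.15 at chr3:4200001-4300000, and 1.71 to 1.80 in the other 3. The 3 windows of chromosome 3 missed the threshold without non-hair replicate 1, with log2 differences of 1.72 to 2.59 and adjusted p of 0.0519 to 0.107.

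The 5 largest falls lay in the interior of chromosomes 1, 3 and 5, in windows with 0 or 1 protein-coding gene. In chr5:11900001-12000000, hair replicate 1 held 127 bp of regions, the other 3 epidermal lists held none, and root tip lists held 1237 and 8409 bp. In chr1:15100001-15200000, epidermal lists held 670, 0, 0 and 152 bp and root tip lists 1895 and 10274 bp. The windows chr3:13600001-13700000, chr5:11800001-11900000 and chr1:15400001-15500000 followed, with 965 to 2173 bp in root tip replicate 1 and 3622 to 5300 bp in replicate 2. Root tip replicate 1 had less than replicate 2 in each of the 5, and more than every epidermal list. These windows reached the coverage minimum through the root tip lists alone, so their tests add no support. Without root tip replicate 2, 3 of them were below it, and the log2 differences of the other 2 were −2.97 and −2.98, against −4.18 and −3.50. With an epidermal list left out the log2 differences were −4.56 to −3.21, and most missed the threshold, with adjusted p of 0.0157 to 0.184.

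Coverage was then set against gene positions. The 27444 protein-coding genes of the TAIR10.1 table, which gives no strand, were aligned at both edges, so starts and ends of transcription are pooled. All 6 lists peaked at the gene edge. At 50 bp outside it, 34.6 and 28.2% of edges were covered in hair lists, 34.4 and 25.2% in non-hair lists, and 22.0 and 14.3% in root tip lists. At −3000 bp, that is outside the gene, the values were 16.5 and 10.8%, 17.5 and 9.48%, and 8.01 and 7.28%. The peak was therefore present in each list and lowest in root tip replicate 2. At 500 bp inside the edge, coverage dropped to 2.72% in root tip replicate 1, but to 7.38% in replicate 2, 6.04 and 6.97% in the replicate 2 epidermal lists and 15.5 and 17.5% in the replicate 1 epidermal lists.

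**Figure D2:**
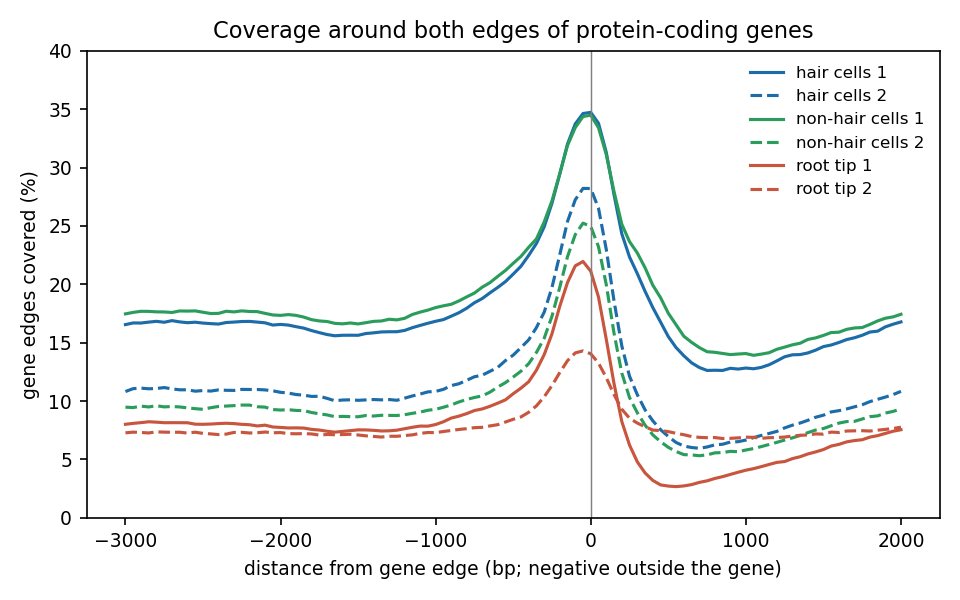
Percent of the edges of protein-coding genes covered by a region (vertical axis) against distance from the edge in bp, negative outside the gene (horizontal axis). Each line is 1 list, solid for replicate 1 and dashed for replicate 2. All lists peak at the edge, from 14.3% in root tip replicate 2 to 34.6% in hair replicate 1 at 50 bp outside.

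The share of covered length inside genes did not separate the groups. It was 53.3 and 45.0% in hair lists, 55.5 and 44.8% in non-hair lists, and 33.8 and 54.9% in root tip lists (exact permutation p = 0.467, adjusted 0.467). The root tip replicates lay at the bottom and near the top of the 6 values, and the sign of the difference depended on which was used, from 15.9 percentage points without replicate 2 to −5.24 without replicate 1.

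The second comparison was of width at loci open in every list. Joining overlapping regions over the 6 lists gave 61831 loci, of which 11580 held a region from all 6. These shared loci carried 66.3 and 63.6% of the covered length of root tip lists, 42.7 and 54.4% of hair lists and 41.2 and 58.8% of non-hair lists. Another 6574 loci were held by all 4 epidermal lists and neither root tip list, with a median width of 254 bp. The reverse, both root tip lists and no epidermal list, gave 176 loci with a median width of 240 bp. At the shared loci the median width was 553 and 458 bp in hair lists, 546 and 427 bp in non-hair lists, and 433 and 374 bp in root tip lists.

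Shared loci thus tended to be wider in epidermis, by 1.22-fold (log2 difference 0.29), although the groups overlapped, since non-hair replicate 2 lay below root tip replicate 1 (exact permutation p = 0.2, adjusted 0.229). Over all regions the order was the other way. Median widths were 259 and 262 bp in hair lists, 267 and 269 bp in non-hair lists, and 307 and 287 bp in root tip lists (exact permutation p = 0.0667, adjusted 0.178). The commonest widths given above had the same order between the groups, though not between single lists. The order of the median widths reversed when equal numbers of the widest regions were taken, to a log2 difference of 0.37. At shared loci, 18.4% of loci in root tip replicate 2 and 6.42% in replicate 1 sat at the commonest width of the list, against 0.0604 to 2.88% in epidermal lists. All 4 epidermal lists were wider than both root tip lists at 31.5% of shared loci and narrower than both at 6.44%. Relative to the median of each list the order turned, with 1854 of the 11580 loci wider and 2760 narrower in all 4 epidermal lists than in both root tip lists.

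**Figure D3:**
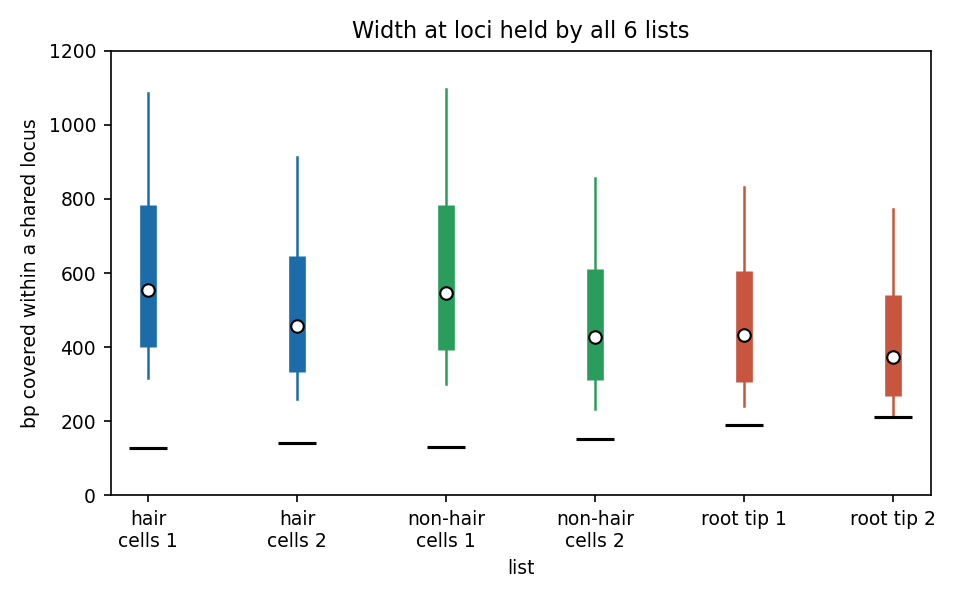
Covered bp within each of the 11580 loci held by all 6 lists (vertical axis) for each list (horizontal axis). Circles are medians, thick bars run from the 25th to the 75th percentile, thin lines from the 10th to the 90th, and black dashes mark the commonest width of the list. Replicate 1 epidermal lists have the highest medians, 553 and 546 bp, and root tip replicate 2 the lowest, 374 bp.

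Relative to the median of each list, limma called 485 shared loci (4.19% of those tested), with 298 wider in epidermis (2.57%) and 187 narrower (1.61%). Without that centring the median locus was 0.24 wider on the log2 scale in epidermis, and 121 loci were wider and 4 narrower. In the limma fits with any of the 4 epidermal lists left out, at most 1 locus passed, with 1861 to 2624 at an unadjusted p under 0.05. All of the 247 to 461 calls that could be tested again kept their sign. That was nearly fixed, since all 298 and 187 calls had no overlap between groups. In these fits, as in those without a root tip list, 1 group is a single list. Without root tip replicates 1 and 2 in turn, 1431 and 2610 passed.

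The loci that were widest in epidermis relative to root tips lay at genes of several kinds. At chr3:21154545-21156972, which overlaps NAP57, the dyskerin-type pseudouridine synthase, epidermal widths were 2052, 945, 2426 and 958 bp, in the order hair 1, hair 2, non-hair 1 and non-hair 2, and root tip widths were 191 and 282 bp. At chr5:8508161-8509616, over VSP1, a vegetative storage protein induced by jasmonate, the widths were 1454, 1204, 1444 and 906 bp against 239 and 211 bp. At chr2:19030800-19032296, 1289 bp from JAR1, the enzyme that joins jasmonate to isoleucine, they were 1450, 1117, 1497 and 1116 bp against 238 and 211 bp. At both of these, root tip replicate 2 was at its commonest width. At the NAP57 locus, root tip replicate 1 was at its own. The other 2 overlapped HCEF1 (chr3:20015708-20017385, 1417 to 1613 bp against 241 and 320 bp) and AT5G24165 (chr5:8187061-8188676, 610 to 1616 bp against 191 and 263 bp). Their log2 differences were 2.15 and 2.11, with adjusted p of 0.0113 and 0.0181. Root tip replicate 1 was also at its commonest width, 191 bp, at AT5G24165.

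The 5 loci with the largest falls covered 782 to 4892 bp in root tip lists. At chr3:14093236-14097583, which meets AT3G33530 and ARP6, a subunit of the SWR1 complex that deposits histone H2A.Z, root tip regions covered 4326 and 4292 bp. Epidermal lists covered 953, 792, 926 and 725 bp there (log2 difference −2.65 ± 0.16 SE, adjusted p = 0.00335), and the groups were far apart. At chr5:16395656-16400624, over AT5G40910, root tip lists covered 2893 and 4892 bp and epidermal lists 503 to 1153 bp. The other 3 lay 58772 to 69825 bp from the nearest protein-coding gene, on chromosomes 3, 4 and 5. At chr4:4008281-4011776, for example, root tip lists covered 3410 and 3005 bp and epidermal lists 354 to 1031 bp. At chr5:11706464-11707698, hair replicate 1 was at its commonest width, 127 bp. At chr3:13597367-13598757, hair replicate 2 and non-hair replicate 2 were at theirs, 142 and 152 bp.

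The third comparison was of spacing. Neighbouring regions lay closer in epidermal lists, with median gaps of 697 and 1206 bp in hair lists and 667 and 1477 bp in non-hair lists, against 2052 and 2036 bp in root tip lists. No epidermal value reached a root tip value (0.467-fold, exact permutation p = 0.133, adjusted 0.178). Gaps under 1 kb made up 58.7 and 46.1% of gaps in hair lists, 60.0 and 42.0% in non-hair lists and 34.7 and 33.7% in root tip lists (exact permutation p = 0.133, adjusted 0.178). With the 23288 widest regions of each list, median gaps were 1993 and 2185 bp in hair lists, 1862 and 2145 bp in non-hair lists, and 2052 and 2055 bp in root tip lists. The groups then overlapped (log2 difference −0.0080, exact permutation p = 1). The closer spacing in whole lists was thus not seen between lists with equal numbers of regions. Equal numbers over the same chromosomes nearly fix the mean gap, so this comparison says little about spacing apart from number.

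**Figure D4:**
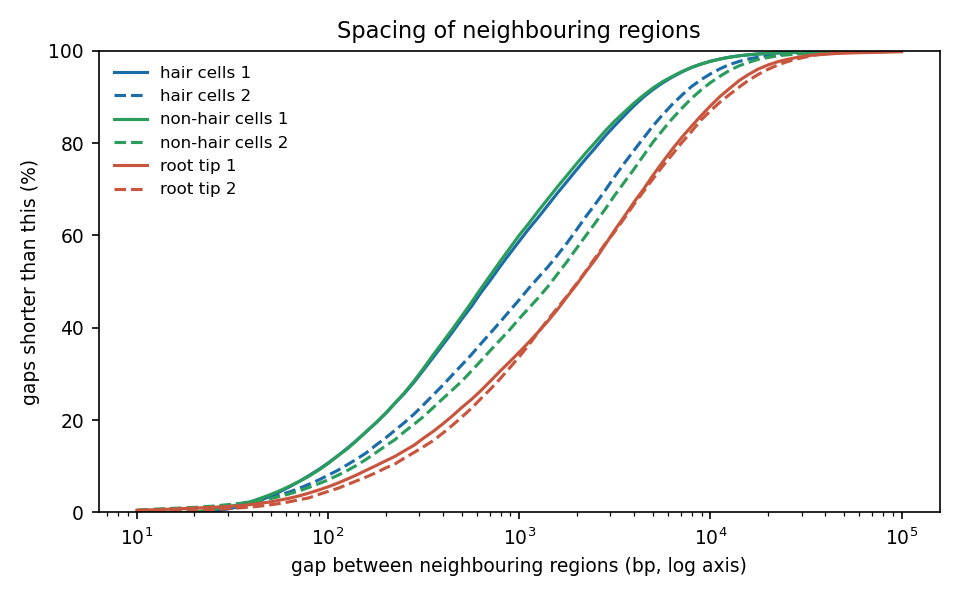
Percent of gaps shorter than a given length (vertical axis) against that length in bp on a log axis (horizontal axis), for whole lists. Each line is 1 list, solid for replicate 1 and dashed for replicate 2. At 1 kb the root tip lists stand at 34.7 and 33.7% and the epidermal lists between 42.0 and 60.0%.

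The gaps of one list were then searched for whole regions of another. Of the 5568 root tip replicate 1 gaps of 5000 to 20000 bp, 87.4 and 65.6% held a region of hair replicates 1 and 2, and 85.2 and 56.9% one of non-hair replicates 1 and 2. Root tip replicate 2 had a region in 49.0% of the same gaps, fewer than any epidermal list. In the other direction, of the 5743 gaps of that size in non-hair replicate 2, the shortest epidermal list, root tip replicates 1 and 2 had a region in 24.8 and 41.5%, and hair replicates 1 and 2 in 76.7 and 39.3%. The extra epidermal regions were thus found inside the longer root tip gaps more often than the reverse, in lists that differ in length.

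The longest stretch with no region in any epidermal list was chr1:14308498-15081901, of 773404 bp with 7 protein-coding genes. Root tip replicate 1 held 6 regions there, with 1011 bp in all, and replicate 2 held 27 regions with 7513 bp. The next 4 stretches, of 258395 to 305705 bp on chromosomes 1, 3, 4 and 5, held 0 to 4 regions of root tip replicate 1 and 16 to 43 of replicate 2. In each of these stretches most root tip regions came from replicate 2.

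At single genes, regions in every epidermal list and no root tip list were more frequent than the reverse, in epidermal lists that are longer. Within the gene and 1 kb on each side, 2551 of 27444 genes (9.30%) had a region in all 4 epidermal lists and neither root tip list, 21 (0.0765%) had the reverse, 13341 (48.6%) had one in all 6 and 2606 (9.50%) in none. With equal numbers of the widest regions the counts were 1187 and 273. Leaving out a list can only raise these counts, to 3799 and 91 without root tip replicate 2 and to 5505 and 330 without replicate 1. In the limma fit on 23661 genes, 946 genes were called, and covered length relative to the list was higher in epidermis at 725 (3.06%) and lower at 221 (0.934%), with 2013 and 4 when the lists were not centred, where the median gene was 0.95 higher on the log2 scale. Of the 725, 695 had no region in either root tip list, and of the 221, 18 had none in any epidermal list. Such genes passed the minimum of 50 bp through the other group alone, so their calls add no support for a difference. The balance of directions turned in other fits, with 1929 higher and 1959 lower when epidermis was 1 group, and 4553 and 5374 without root tip replicate 1. Relative to the list, 3688 of the 23661 genes were higher and 7051 lower with no overlap between groups, called or not. All 725 and 221 calls were among these, so their signs could hardly change with an epidermal list left out. In the limma fits with any of the 4 epidermal lists left out, no gene passed, with 4172 to 7326 at an unadjusted p under 0.05, and all 946 kept their sign. Without root tip replicates 1 and 2 in turn, 9927 and 5400 passed.

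The 10 genes with the largest rises had no region in either root tip list, and they are given as values with no test. CYP81D5 and CYP81D4, adjacent cytochrome P450 genes that share part of the stretch measured, had 3133, 2040, 3796 and 2021 bp and 2914, 2057, 3177 and 1811 bp covered in hair 1, hair 2, non-hair 1 and non-hair 2. LOX4, a lipoxygenase of jasmonate synthesis, had 2566, 1176, 3280 and 1414 bp. LAC7, a laccase, had 2327, 1099, 2864 and 1300 bp, and GulLO2, of the gulonolactone oxidase family, had 1898, 1233, 3240 and 1392 bp. At all of these the replicate 1 list of each cell type had more than its replicate 2. The zinc finger gene ZF1 and its neighbour AT5G67460 had 822 to 2440 bp and 810 to 2461 bp, and AT1G03220, AT4G38550 and AT3G12977 had between 879 and 2833 bp.

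The 10 largest falls are likewise given as values with no test. ENT7, a nucleoside transporter of the equilibrative family, had 726 and 696 bp in root tip lists and no region in any epidermal list. NET2D, of a family of actin-binding proteins, had 266 and 1054 bp, and ORP1B, of the oxysterol-binding protein family, 347 and 211 bp, again with none in epidermis. AT2G16575, AT2G37030, AT4G07666, AT5G45560 and AT2G19290 had the same pattern with 191 to 573 bp. ACA9, a calcium pump, had 367 and 844 bp in root tips, 127 and 131 bp in the replicate 1 epidermal lists and none in the others, and AT1G68160 had 912 and 275 bp against 130 bp in hair replicate 1 alone. Several root tip values, such as 211 and 191 bp, are a single region of the commonest width.

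Genes of known root functions were read from 8 lists, with 78 of 79 names matched. Of the 66 tested, 2 rose and 2 fell, against 725 and 221 of 23661, and the median log2 difference was −0.094 against −0.21 over all genes tested. In the list of epidermal patterning genes 1 of 9 tested rose and none fell. That gene was GL2, with 1134 and 697 bp in hair lists, 3175 and 1314 bp in non-hair lists and no region in either root tip list, so that it was tested through its epidermal regions alone. Its regions lay mostly outside the gene, since within the gene alone its log2 difference was 0.64 (adjusted p = 0.624). The non-hair plants carry a GL2 promoter transgene and the hair plants an ADF8 promoter transgene, and regions from the transgene copy cannot be told apart from those of the gene. ADF8, an actin-depolymerizing factor of hair cells, had 1251 and 1210 bp in hair lists, 396 and 350 bp in non-hair lists and 243 and 0 bp in root tip lists (adjusted p = 0.223). WER, the MYB factor upstream of GL2, had 241 bp in non-hair replicate 1 and no region elsewhere. CPC, a mobile repressor made in non-hair cells, had 749 to 1298 bp in epidermis and 435 and 0 bp in root tips (adjusted p = 0.226).

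Of the 13 root hair genes tested, none rose and 1 fell. RHD2, the NADPH oxidase of hair growth, had 2101, 1464, 2868 and 1378 bp in epidermis and 2284 and 1651 bp in root tips, values that overlap, so its fall of 1.21 on the log2 scale is relative to longer epidermal lists (adjusted p = 0.0464; 0.929 without centring). RHD6, which starts hair formation, had 395 to 517 bp in epidermis and 846 and 447 bp in root tips (adjusted p = 0.0791). COW1, a phosphatidylinositol transfer protein of hair tips, had 152 to 217 bp in all 4 epidermal lists and no region in root tips (adjusted p = 0.229). The expansin genes EXPA7 and EXPA18 had regions in all 6 lists, of 490 to 1469 bp and 247 to 1122 bp in epidermis. Hair genes held regions in 12 to 14 of 15 cases in epidermal lists and in 10 and 11 of 15 in root tip lists. Over all genes the shares were likewise higher in epidermal lists, at 74.8 to 87.3% against 62.9 and 59.0%.

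Of 9 uptake transport genes tested, 1 rose and none fell. FRO2, the ferric chelate reductase, had 1544 and 1250 bp in hair lists, 1164 and 351 bp in non-hair lists and 72 and 0 bp in root tip lists (adjusted p = 0.0443). FRO2 passed the minimum of 50 bp through its epidermal regions, so its call adds no support. IRT1, the iron transporter that acts with it, had 428 to 811 bp in epidermis and 693 and 295 bp in root tips (adjusted p = 0.213). The ammonium transporters AMT1;1 and AMT1;3 and the proton pump AHA2 had regions over 980 to 1926 bp in root tips and 1584 to 3632 bp in epidermis, and none of the 3 passed the test.

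Genes of the tip and of other cell types also had regions in epidermal lists. Of 9 tested genes of the meristem and stem cell niche, 1 fell and none rose. That was PLT2, a factor that maintains the meristem, with 519, 187, 490 and 247 bp in epidermis and 533 and 631 bp in root tips (log2 difference −1.88 ± 0.37 SE, adjusted p = 0.0494; 0.407 without centring). SCR, which patterns the ground tissue, had 433 to 1817 bp in epidermis and 191 and 0 bp in root tips (adjusted p = 0.120), and WOX5, a gene of the quiescent centre, had 224 to 566 bp against 191 and 0 bp. None of 8 cell division genes passed the test, and the mitotic cyclin gene CYCB1;1 had no region in root tips but 228 to 310 bp in 3 epidermal lists. None of 4 root cap, 7 endodermis and 7 vascular genes passed.

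Those 3 lists of other cell types were read beside the labels. They cannot test the labels, since the longer epidermal lists hold regions at more genes of any kind. Endodermis genes held regions in 7 or 8 of 8 cases in each epidermal list and in 5 and 7 of 8 in root tip lists, with 2848 to 7067 bp in all against 2015 and 2765 bp. Vascular genes held regions in 6 to 8 of 9 cases against 7 and 6 of 9, with 2755 to 7635 bp in all against 4466 and 2309 bp. Root cap genes held regions in 2 to 4 of 5 cases against 3 of 5 in both root tip lists, with 1346 to 3130 bp against 1263 and 2224 bp. SMB, a factor of the root cap, and APL, a factor of the phloem, had no region in any list. Over all genes, 74.8 to 87.3% held a region in epidermal lists and 62.9 and 59.0% in root tip lists. Relative to the list, the median log2 difference was −1.40 over the 4 root cap genes tested, −0.59 over the 7 vascular genes and 0.23 over the 7 endodermis genes, against −0.21 over all genes tested. All 4 root cap genes had values below 0, and none passed the test. The lowest, FEZ and BRN2 (−1.83 and −1.77), had a region in only 1 epidermal list and 1 root tip list each. In covered bp the groups overlapped at all 4. A region at a gene does not show that the gene is expressed. The part of other cell types in any result was not tested.

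**Figure D5:**
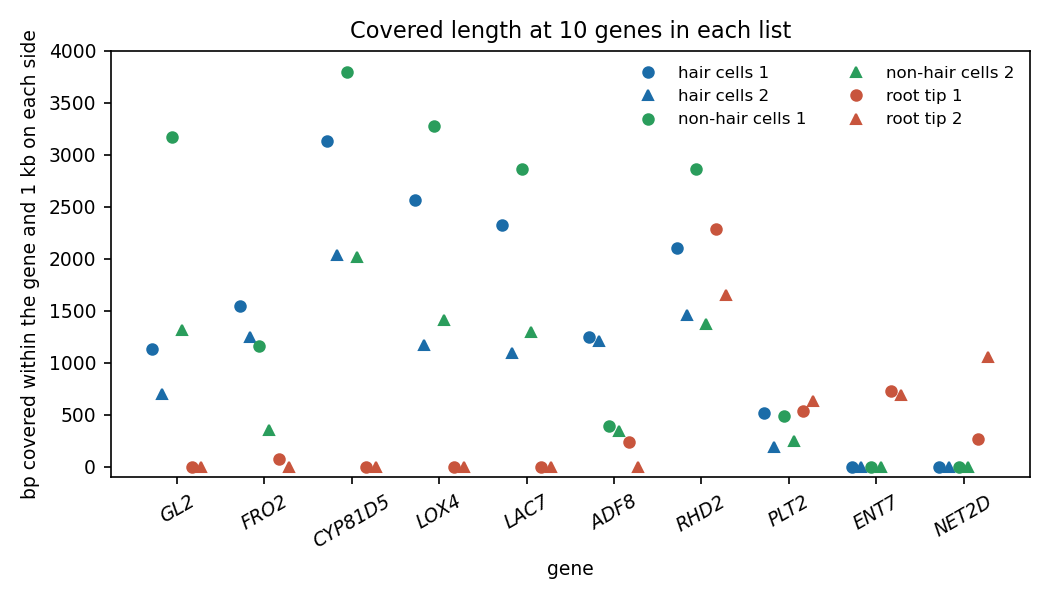
Covered bp within the gene and 1 kb on each side (vertical axis) for 10 genes (horizontal axis) in each of the 6 lists. Circles are replicate 1 and triangles replicate 2, with hair cells in blue, non-hair cells in green and root tips in red. GL2, CYP81D5, LOX4 and LAC7 are at 0 in both root tip lists, ENT7 and NET2D are at 0 in all epidermal lists, and the values of RHD2 overlap between groups.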

How the data were processed

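The deposited files used here were 6 lists of accessible regions, 1 per sample, each giving chromosome, start and end positions with no score. Per the submitters' processing notes, the tools included Bowtie2 and HOMER and the Arabidopsis build was TAIR10. The names of the deposited lists give a HOMER region mode and a setting of 150. Versions, read filters and any pooling are not given in the sources used here. Genes came from the RefSeq table of TAIR10.1, whose chromosomes 1 to 5 were taken to be those of TAIR10, and the peak of coverage at gene edges was checked. That table has no strand, so a planned stretch before each gene start was replaced, after the data were seen, by the gene with 1 kb on each side. Promoter sequences and motifs were not used here.

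Regions off chromosomes 1 to 5 were left out. Regions overlapped when they shared at least 1 bp. Values were covered bp per 100 kb window per Mb of the list, plus 20 (windows with a mean of at least 500 bp), width within joined loci, and covered bp per gene, plus 50 (genes with a mean of at least 50 bp). Each was taken as log2. Widths were centred on the median of the list, and gene values on its mean. limma 3.58.1 (R 4.3.3) fitted the 3 groups with a variance trend, and the contrast was the mean of hair and non-hair cells minus root tips, with Benjamini-Hochberg adjustment over all features. Values per list had exact two-sided permutation tests over 15 assignments. The design text calls replicates biological. Named windows and loci were the 5 largest rises and 5 largest falls among calls with no overlap, and named genes the 10 and 10. The members, gene lists and tests were chosen with earlier results of these data known. The routines were tested on simulated data. Intervals and tests ran in SciPy 1.17.1, pandas 2.3.3 and NumPy 2.4.6 under Python 3.11.15, and plots in Matplotlib 3.10.9.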

Additional observations from a re-analysis of the deposited data

Results flagged for a closer look

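In a group of 4 lists, a value was picked out when its gap to the nearest other value, as a share of the range, exceeded Dixon's 95% critical value. Among 48 sets of 4 epidermal values tested, 5 were picked out. Chance gives about 1 in 20, but in 4 of the 5 the other 3 values were 0, where any single region is picked out. In 3 of the windows that were lower in epidermis, hair replicate 1 held the only epidermal regions, with shares of 7.23 bp per Mb at chr5:11900001-12000000, 16.5 at chr3:13600001-13700000 and 8.999 at chr1:15400001-15500000. At the shared locus chr3:13597367-13598757, hair replicate 1 was 488 bp wide and the other epidermal lists 142 to 167 bp. At AT1G68160, hair replicate 1 had 130 bp and the others none. Outside chromosomes 1 to 5, mitochondrial regions numbered 132 in root tip replicate 1 and 120 in replicate 2, with none in epidermal lists. Whether the lists were filtered alike is not given in the sources used here.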

How the results depend on the processing

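With 1 list left out, called windows numbered 19 to 666, called shared loci 0 to 2610 and called genes 0 to 9927. Genes with regions in all epidermal lists alone numbered 2553 to 5505, those with regions in root tip lists alone 21 to 330, and the difference in covered length within genes ran from −5.24 to 15.9 percentage points. With the replicate number as a block, limma called 442 windows, 0 loci (3068 at an unadjusted p under 0.05) and 0 genes (7796). Deviations of same-numbered hair and non-hair lists correlated at −0.13 over windows, 0.42 over loci and 0.44 over genes. Those of hair and non-hair lists with root tip lists were −0.42 and 0.37 over windows, −0.19 and −0.09 over loci, and −0.21 and −0.08 over genes. The numbers were therefore not taken as pairs over the 3 groups. Both replicate 1 epidermal lists alone held 7362 loci, and both replicate 2 epidermal lists alone held 0. The main fits do not model such a difference shared by epidermal replicates. With 2 groups in place of 3, 493 windows, 970 loci and 3888 genes were called. Without the variance trend, 139 windows, 437 loci and 1918 genes were called. With equal numbers of the widest regions, 321 windows, 233 loci and 269 genes were called, and the presence counts were 1187 and 273. With regions of at least 300 bp, 163 loci and 123 genes were called, and 86 genes were in root tip lists alone. With regions under 500 bp apart joined, 457 genes were called. Windows of 500 kb gave 126 calls among 239. Without centring, 125 loci and 2017 genes were called, and without the stretch beside the gene, 324 genes. The log2 difference in median width reversed to 0.37 with equal numbers, 0.18 with joined regions and 0.054 with regions of at least 300 bp. The causes were not tested. The median gap, with a log2 difference of −1.10, was at −0.0080 with equal numbers. Depth is unknown, so no limit of detection can be given. A planned stretch before gene starts was not run.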
